A study of Homo sapiens with 6 samples.

Results

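The classical histone deacetylases HDAC1 to HDAC10 are the class I and class II genes of the zinc-dependent deacetylases. They were taken as a family because short-chain fatty acids are known to inhibit enzymes among them, though not necessarily every member. All 10 genes were found by symbol among the 58735 rows of the count table, and 9 of them had enough counts to be tested. The libraries came from Meg-01, an established human megakaryoblastic cell line. Of the 6 libraries, 3 were from cells without treatment and 3 from cells given sodium propionate (C3) at 500 µM, for 48 h by the sample labels, while the methods also name a shorter incubation and the labels give no time for the controls. The paper speaks of technical replicates in its comparison of these libraries, so p-values measure the spread between these libraries, which need not include that between separate cultures.

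Histone deacetylases remove acetyl groups from lysines of histones and of other proteins, and so oppose the acetyltransferases. Class I enzymes (HDAC1, HDAC2, HDAC3 and HDAC8) are mostly nuclear, and the first 3 act as subunits of corepressor complexes. Class IIa enzymes (HDAC4, HDAC5, HDAC7 and HDAC9) shuttle between nucleus and cytoplasm under the control of kinases and 14-3-3 proteins, bind MEF2 transcription factors and have weak deacetylase activity of their own. Class IIb holds HDAC6, which deacetylates tubulin in the cytoplasm, and HDAC10, a polyamine deacetylase. Since inhibition by a fatty acid acts on the enzyme, RNA counts measure the supply of the enzymes' transcripts and not their activity.

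Library totals ranged from 16159449 to 22821722 counts. Groups were separated on the first principal component of the tested genes, and on the second control replicate 3 lay at -21.3 against 10.9 and 12.5 for the other control libraries, and C3 replicate 1 at 13.4 against -10.4 and -5.09. The share of counts from mitochondrial genes was 4.16%, 4.58% and 5.51% in control replicates 1 to 3 and 3.83%, 3.87% and 3.51% in C3 replicates 1 to 3, without overlap and highest in control replicate 3, and its part in the results was not tested. For members of the family whose call or sign turned on these 2 libraries, values are also given without them. Of 10 megakaryocyte markers, 5 had a mean of at least 1000 normalized counts (ITGA2B, GP1BA, GATA1, FLI1 and NFE2), while PF4 was at 0 in every library. The summed marker count was 24792 to 26013 in control and 22849 to 25200 in C3 libraries. Of 8 genes taken as markers of other cell types (among them CD3E, EPCAM, COL1A1, PECAM1 and LYZ), 5 passed the count filter. The sum of the 8 was 1487 to 1650 in control and 1291 to 1424 in C3 libraries. PECAM1, which is not confined to other cell types, was its largest part (means of 723 in control and 690 in C3 libraries). The sum thus does not measure other cells alone. By the gates given below, GP1BA, TUBB1 and LYZ were lower and COL1A1 was higher after C3, and COL1A1 passed the count filter only through its C3 libraries (raw counts of 6, 5 and 2 in control and 12, 11 and 34 in C3 libraries). The part of these shifts in the HDAC results was not tested.

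Per length of transcript, HDAC1, HDAC3 and HDAC2 had the highest levels of the family and HDAC9 was close to absent. To show what lies ahead of the genes at both ends of this order, the 250 bases before the RefSeq start (GRCh38.p14) are printed for HDAC1 and HDAC3, for HDAC7, the member with the largest shift after C3 by p-value, and for the first annotated start of HDAC9. Capitals mark the GC box, GGGCGG or CCGCCC on the other strand, and neighbouring matches may overlap.
HDAC1, chr1:32291833-32292082, forward strand: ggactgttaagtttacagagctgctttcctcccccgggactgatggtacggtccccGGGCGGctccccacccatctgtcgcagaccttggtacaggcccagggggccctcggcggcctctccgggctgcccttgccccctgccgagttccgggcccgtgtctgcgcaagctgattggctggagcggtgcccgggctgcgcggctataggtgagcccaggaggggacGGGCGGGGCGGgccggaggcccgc
HDAC3, chr5:141636850-141637099, reverse strand: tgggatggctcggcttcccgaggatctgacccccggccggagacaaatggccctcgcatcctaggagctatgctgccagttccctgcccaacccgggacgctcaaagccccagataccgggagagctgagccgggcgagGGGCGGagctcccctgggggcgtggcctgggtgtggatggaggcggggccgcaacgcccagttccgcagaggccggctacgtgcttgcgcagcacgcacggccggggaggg
HDAC7, chr12:47819904-47820153, reverse strand: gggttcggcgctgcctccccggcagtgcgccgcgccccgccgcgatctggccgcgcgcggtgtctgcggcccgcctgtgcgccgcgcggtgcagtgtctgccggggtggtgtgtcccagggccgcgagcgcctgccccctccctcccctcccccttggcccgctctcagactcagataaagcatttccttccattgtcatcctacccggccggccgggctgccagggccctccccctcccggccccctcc
HDAC9, chr7:18086575-18086824, forward strand: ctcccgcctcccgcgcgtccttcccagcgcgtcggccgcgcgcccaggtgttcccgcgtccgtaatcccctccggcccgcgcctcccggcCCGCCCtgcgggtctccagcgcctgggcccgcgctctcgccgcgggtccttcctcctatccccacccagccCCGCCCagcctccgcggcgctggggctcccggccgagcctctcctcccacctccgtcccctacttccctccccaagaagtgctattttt

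The GC box was matched 3 times in the HDAC1 window, 1 time in that of HDAC3, 0 times in that of HDAC7 and 2 times in that of HDAC9. Of 35116 promoter windows of this length, 42.6% held at least 1 match. All 4 printed windows were rich in G and C, with 71.6%, 70.8%, 75.6% and 75.2% against a median of 58% over all windows. The window of HDAC2, which is not printed, had 63.2% and 0 matches of the GC box. The windows of HDAC2 and HDAC7 lie inside the gene spans given below, which end at 114011308 and 47833132, so other starts may lie further upstream. RefSeq windows were found for 9 of the 10 members, 19 windows in all, of which 5 belong to HDAC9. The other 4 HDAC9 windows had 44%, 45.2%, 48% and 38.4% G and C and 0 matches of the GC box. No window held the TATA box TATAAA or its reverse complement TTTATA, which 10.7% of all windows had.

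On the scale of TMM-normalized counts per kb of the canonical transcript, the class I gene HDAC1 was highest, with 2383 ± 88.8 in control and 2534 ± 106 in C3 libraries (SD, n = 3 each). HDAC3, the deacetylase of the NCoR corepressor complex, followed with 1282 ± 4.14 and 1296 ± 20.2 per kb. HDAC2, the close paralog of HDAC1, had 609 ± 42.6 and 645 ± 25.2 per kb. The class IIa genes HDAC7 (460 ± 43.9 and 523 ± 17.4) and HDAC5 (317 ± 27.4 and 311 ± 25.4) came next. HDAC6 had 185 ± 12.7 and 193 ± 32.7, HDAC4 56.0 ± 1.74 and 52.5 ± 1.87, and HDAC8 43.9 ± 7.72 and 39.0 ± 3.57. HDAC10 had 11.3 ± 2.92 and 12.4 ± 4.30 and HDAC9 0.478 ± 0.277 and 0.370 ± 0.285 per kb. Thus the order was the same in control and C3 libraries, and between neighbours in it only HDAC4 and HDAC8 had library values that came within reach of each other, with HDAC4 at 51.1 to 57.2 and HDAC8 at 35.0 to 52.4 per kb over the 6 libraries. The order rests in part on the length that is used. HDAC2 had more normalized counts than HDAC1, with means of 5927 against 5048 in control and 6279 against 5368 in C3 libraries. It ranked lower per kb because its canonical transcript has 9737 bp against 2118 bp for HDAC1. Which transcripts the cells used was not measured. With all annotated exons merged in place of the canonical transcript, HDAC5 (221 ± 19.1) lay above HDAC7 (195 ± 18.6) in control libraries and below it in C3 libraries (217 ± 17.7 and 222 ± 7.39), and HDAC8 fell below HDAC10.

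**Figure D1:**
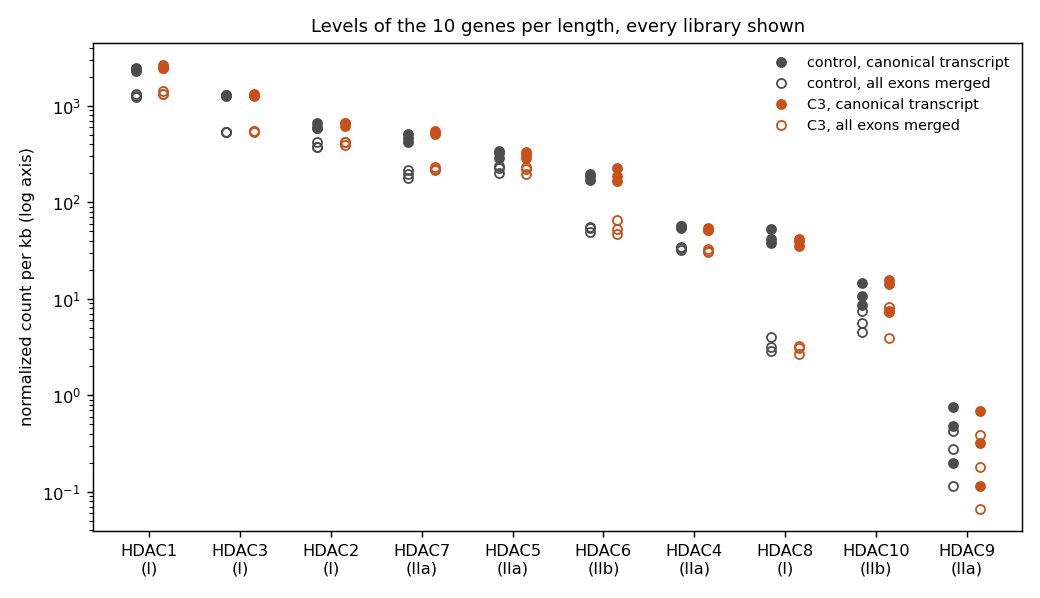
Normalized count per kb of HDAC1 to HDAC10 on a log axis, one point per library, control in grey and C3 in orange, with the class in brackets. Filled points use the canonical transcript and open points all exons merged; HDAC1 is highest by either length and HDAC9 lowest.

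Summed over the family per kb of canonical transcript, class I genes made up 80.8% ± 1.11 of the level in control and 80.5% ± 0.225 in C3 libraries (SD, n = 3 each). Class IIa genes held 15.6% ± 1.00 and 15.8% ± 0.193, and class IIb genes 3.67% ± 0.114 and 3.66% ± 0.418. The control libraries ranged from 79.8% to 82.0% for class I, and the C3 libraries (80.3% to 80.7%) lay inside that range. With merged exons the class I share was 81.2% ± 1.09 and 81.3% ± 0.220. The shares rest on the same annotated lengths as the order above and share its limit.

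None of HDAC1 to HDAC10 was a differentially expressed gene (DEG) after C3 treatment. The gates were those of the study, a fold change of more than 1.3 up or down and an adjusted p under 0.01. The p-values are those of edgeR (quasi-likelihood), adjusted by Benjamini-Hochberg over all 15078 tested genes. By these gates 6.52% of them were DEGs, namely 761 that rose and 222 that fell (1024 and 101 when libraries were scaled by their size alone, where the median log2 fold change of all genes was 0.076). DESeq2 and limma-voom also called 0 of the 9 tested members by these gates, and 1 member (HDAC7) had an unadjusted p-value below 0.05 in edgeR's test. At that level lay 32.1% of all tested genes, 16.8% with higher and 15.3% with lower RNA. At an adjusted p-value below 0.05 without a fold gate, which 19.8% of all tested genes passed, 0 members were called. Log2 fold changes of the 9 members ran from -0.15 (HDAC8) to 0.18 (HDAC7), with a median of 0.056 against 0.0021 over all tested genes, and 6 were positive and 3 negative (7 and 2 when libraries were scaled by their size alone, 5 and 4 without C3 replicate 1). The median was not stable, being 0.13 with scaling by library size alone, 0.0090 without C3 replicate 1, 0.017 without control replicate 3, 0.022 without control replicate 2 and 0.035 without C3 replicate 2. For 7 of the 9 members (all except HDAC8 and HDAC10), the 95% interval of the fold change lay inside 1.3-fold in both directions, as it did for 47.5% of all tested genes. In bulk RNA, fewer cells with a transcript and less of it per cell cannot be told apart.

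**Figure D2:**
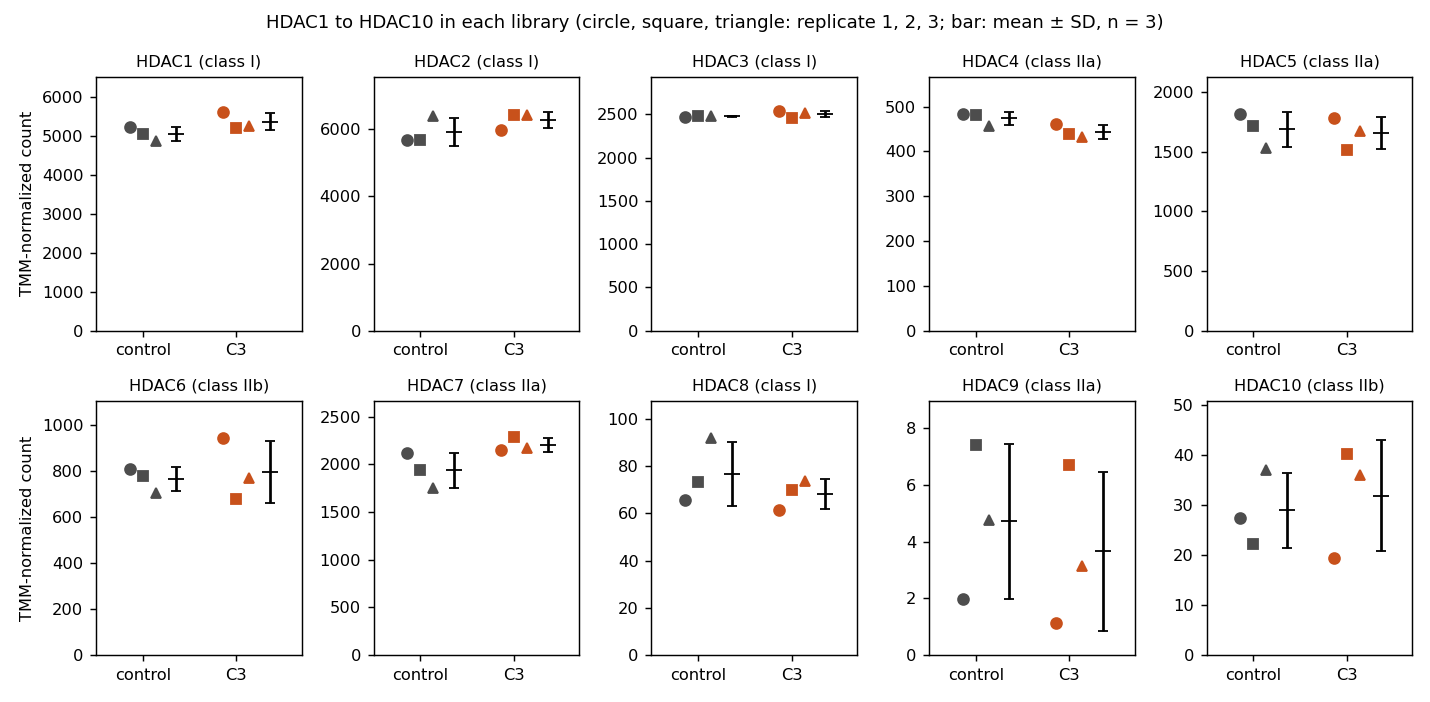
TMM-normalized counts of the 10 genes in each library, with every axis starting at 0, and the mean and SD of each group (n = 3) as bars. Only for HDAC7 do all C3 libraries lie above all control libraries; for the other 9 genes the groups overlap.

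HDAC1 and HDAC2 are the paired catalytic subunits of the NuRD, SIN3 and CoREST complexes. HDAC1 (ENSG00000116478, GRCh38 chromosome 1, 32292083 to 32333635, forward strand) had normalized counts of 5238, 5044 and 4862 in control replicates 1 to 3 and of 5624, 5211 and 5268 in C3 replicates 1 to 3. C3 replicate 2 lay below control replicate 1, so the groups overlapped. The log2 fold change was 0.088 (standard error, SE, 0.062, 95% interval -0.039 to 0.22, edgeR adjusted p = 0.35). It was 0.062 without control replicate 3, 0.056 without C3 replicate 1 and 0.031 without both. In terms of fold, a rise of HDAC1 RNA above 1.16 or a fall below 0.973 of the control level lay outside the interval.

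HDAC2 (ENSG00000196591, chromosome 6, 113933028 to 114011308, reverse strand) had 5678, 5698 and 6406 normalized counts in control and 5996, 6421 and 6421 in C3 libraries. Control replicate 3 reached the C3 values and C3 replicate 1 stayed below it, and these are the 2 libraries that stood apart on the second principal component. The log2 fold change was 0.084 (SE 0.065, 95% interval -0.049 to 0.22, edgeR adjusted p = 0.40). It was 0.14 without control replicate 3 alone and 0.057 without control replicate 2 (edgeR adjusted p = 0.12 and 0.72). Without both libraries, an alternative chosen after the data were seen, the log2 fold change was 0.18 with an adjusted p-value of 0.000321, still under the fold gate. The part of these libraries in the result was not tested further. Within libraries, the log2 ratio of HDAC1 to HDAC2 counts was -0.12, -0.18 and -0.40 in control and -0.092, -0.30 and -0.29 in C3 libraries. Their means of -0.23 ± 0.15 and -0.23 ± 0.12 (SD, n = 3) differed by 0.0036.

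HDAC3 (ENSG00000171720, chromosome 5, 141620876 to 141636849, reverse strand) had the smallest spread of the members within either group. It had 2469.6, 2486 and 2478 normalized counts in control and 2540.4, 2463 and 2513 in C3 libraries, a coefficient of variation of 0.323% and 1.55%. Counting alone gives a larger spread at this depth, so values this low in 3 libraries need not be a trait of HDAC3. Its groups overlapped and the log2 fold change was 0.016 (SE 0.060, 95% interval -0.11 to 0.14, edgeR adjusted p = 0.89). Without C3 replicate 1 this value was 0.0090, without C3 replicate 2 it was 0.031, and with library size alone 0.089. HDAC8, the class I enzyme that works outside these complexes, is on chromosome X (ENSG00000147099, 72329516 to 72573101, reverse strand) and had only 65.6, 73.2 and 91.9 normalized counts in control and 61.5, 69.9 and 73.7 in C3 libraries. Its log2 fold change of -0.15 (SE 0.19, edgeR adjusted p = 0.62) had an interval of -0.53 to 0.23. In terms of fold this interval ran from 0.690 to 1.17. Its log2 fold change was -0.011 without control replicate 3, -0.085 without C3 replicate 1, 0.057 without both and -0.24 without control replicate 1.

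Among class IIa genes, HDAC7 was the only member of the family whose groups did not overlap, which held for 34.4% of all tested genes. HDAC7 (ENSG00000061273, chromosome 12, 47782722 to 47833132, reverse strand) represses MEF2 targets in endothelial cells and thymocytes. Its normalized count was 2125, 1937 and 1755 in control and 2149, 2287 and 2176 in C3 libraries. The control libraries were spread over a wider range than the C3 libraries, and C3 replicate 1 lay just above control replicate 1. The log2 fold change was 0.18 (SE 0.068, interval 0.043 to 0.32), which is a 1.14-fold difference where edgeR gave an unadjusted p-value of 0.012 and 0.059 after adjustment. The exact two-sided permutation test gave 0.1, which 3 against 3 libraries cannot go below. The adjusted p-value lay on both sides of 0.05 among the alternatives, between 0.0145 and 0.242. It was lowest with scaling by library size alone and highest without control replicate 3, where the log2 fold change was 0.12. Without both control replicate 3 and C3 replicate 1 it was 0.14 (edgeR adjusted p = 0.029).

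HDAC5 (ENSG00000108840, chromosome 17, 44076746 to 44123702, reverse strand), a signal-responsive repressor of MEF2, had 1815, 1716 and 1528 normalized counts in control and 1781, 1513 and 1675 in C3 libraries. The groups lay over one another, with a log2 fold change of -0.028 (SE 0.072, 95% interval -0.18 to 0.12, edgeR adjusted p = 0.83). The sign turned with scaling by library size alone (0.044) and without control replicate 1 (0.041) or C3 replicate 2 (0.035), and without both control replicate 3 and C3 replicate 1 the value was -0.14 (edgeR adjusted p = 0.037). HDAC5 shares 24% of its merged exon bases with G6PC3 on the other strand, and the strand setting of the counting is not given, so part of its reads is uncertain. HDAC4 (ENSG00000068024, chromosome 2, 239048168 to 239401654, reverse strand) had 484, 481 and 457 normalized counts in control and 462, 438 and 432 in C3 libraries. It was the member with the most negative log2 fold change apart from the sparse HDAC8, at -0.098 (SE 0.082, 95% interval -0.27 to 0.071, edgeR adjusted p = 0.45), and C3 replicate 1 lay above control replicate 3.

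Within libraries, the log2 ratio of HDAC4 to HDAC7 counts was -2.13, -2.01 and -1.94 in control and -2.22, -2.38 and -2.33 in C3 libraries. All C3 values lay below the control values, with a difference of -0.28 between the means of -2.31 ± 0.085 and -2.03 ± 0.098 (SD, n = 3). Likewise, that of HDAC5 to HDAC7 was -0.20 ± 0.026 in control and -0.41 ± 0.17 in C3 libraries, without overlap. That of HDAC6 to HDAC3 was -1.70 ± 0.10 and -1.67 ± 0.22, and these groups overlapped. Ratios do not depend on the scaling of the libraries. The 2 that did not overlap both contain HDAC7, the member with the highest log2 fold change, so they are not separate results, and the share of other gene pairs without overlap was not computed.

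HDAC9 (ENSG00000048052, chromosome 7, 18086949 to 19002416, forward strand), a MEF2-binding class IIa gene, was the member that did not reach the count filter. It had raw counts of 2, 7 and 4 in control and 1, 7 and 4 in C3 libraries. Its groups overlapped, and no fold change can be read from counts of this size.

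HDAC6 (ENSG00000094631, chromosome X, 48801377 to 48824982, forward strand) had 806, 777 and 704 normalized counts in control and 944, 679 and 768 in C3 libraries. C3 replicate 1 was the highest and C3 replicate 2 the lowest of all 6 libraries, a coefficient of variation of 16.9% among C3 libraries against 6.87% among control libraries. The log2 fold change was 0.056 (SE 0.091, 95% interval -0.13 to 0.24, edgeR adjusted p = 0.72). Without C3 replicate 1 it was -0.073, of the opposite sign, and without control replicate 3 as well it was -0.12. HDAC10 (ENSG00000100429, chromosome 22, 50245183 to 50251405, reverse strand) had 27.4, 22.3 and 37.0 normalized counts in control and 19.3, 40.2 and 36.1 in C3 libraries. Its log2 fold change of 0.18 (SE 0.31, 95% interval -0.45 to 0.80, edgeR adjusted p = 0.74) left the fold change between 0.731 and 1.75, and without both control replicate 3 and C3 replicate 1 it was 0.61 (edgeR adjusted p = 0.17). With single libraries left out it ran from -3.8e-05 (without C3 replicate 2) to 0.41 (without C3 replicate 1). HDAC10 shares 55.8% of its merged exon bases with MAPK12 on the same strand, so its counts may hold only part of its reads or some of its neighbour's.

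**Figure D3:**
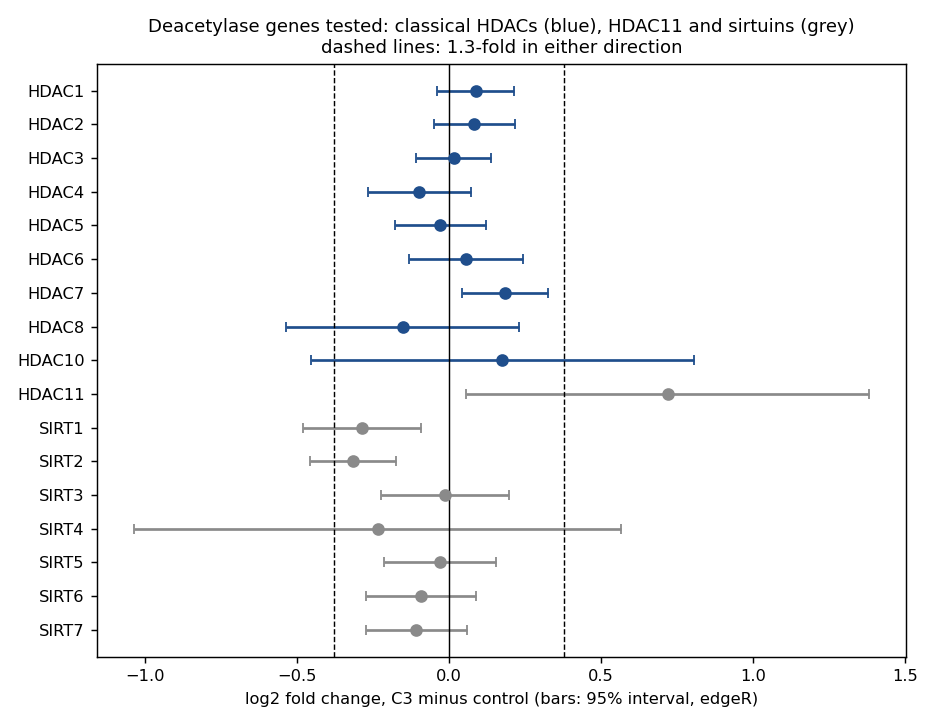
Log2 fold change (C3 minus control) with 95% intervals from edgeR for the 9 tested classical HDACs (blue) and for HDAC11 and the sirtuins (grey). Dashed lines mark 1.3-fold in either direction; the widest intervals belong to the genes with the lowest counts, such as HDAC10, HDAC11 and SIRT4.

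The other deacetylase genes are HDAC11, the only class IV enzyme and also zinc-dependent, and SIRT1 to SIRT7, which use NAD in place of zinc and are not inhibited like the classical enzymes. Of these 8 genes, 0 were DEGs by edgeR, DESeq2 or limma-voom, and 1 was higher and 2 were lower at unadjusted p under 0.05, against 16.8% and 15.3% of all tested genes. SIRT2, a mostly cytoplasmic enzyme that deacetylates tubulin as HDAC6 does, fell from 1105, 1078 and 1066 to 848, 929 and 838 normalized counts. All C3 libraries lay below all control libraries. The log2 fold change of -0.31 (SE 0.069, edgeR adjusted p = 0.0019) passed the p-value gate and not the fold gate. It missed the p-value gate with library size alone (0.023) and without control replicate 1 (0.018), control replicate 2 (0.012) or C3 replicate 3 (0.026). SIRT1, a nuclear deacetylase of histones and transcription factors, had 341, 383 and 398 normalized counts in control and 299.3, 312 and 307 in C3 libraries, also without overlap. Its log2 fold change was -0.29 (SE 0.095, edgeR adjusted p = 0.033), and without both control replicate 3 and C3 replicate 1 it was -0.22 (edgeR adjusted p = 0.090). HDAC11 had low counts of 25.5, 12.7 and 31.0 in control and 50.1, 26.8 and 37.6 in C3 libraries, which overlapped, with a log2 fold change of 0.72 (SE 0.32, edgeR adjusted p = 0.12) that fell to 0.43 without control replicate 2. SIRT3, SIRT4, SIRT5, SIRT6 and SIRT7 had values between -0.23 (SIRT4) and -0.013 (SIRT3), with adjusted p-values of at least 0.38 from the same test. With single libraries left out SIRT4 ran from -0.51 to -0.0012, SIRT6 from -0.14 to -0.012 and SIRT7 from -0.16 to -0.0012. Whether sirtuins and classical HDACs differed in their response was not tested.

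Class I enzymes act inside corepressor complexes, and lists of their subunits were examined next. Among 12 NuRD subunits, the chromatin remodelling deacetylase complex, 0 were DEGs by edgeR, DESeq2 or limma-voom, and 4 were higher and 3 lower at unadjusted p under 0.05 (16.8% and 15.3% of all tested genes). The median log2 fold change was 0.052, but 0.12 with library size alone, 0.092 without control replicate 1, 0.023 without C3 replicate 1 and 0.0037 without both control replicate 3 and C3 replicate 1. MBD3, a methyl-CpG-binding domain subunit, had the smallest p-value and had 1748, 1699.9 and 1638 normalized counts in control and 1408, 1342 and 1371 in C3 libraries, with a log2 fold change of -0.30 (SE 0.063, edgeR adjusted p = 0.0011). These groups did not overlap, and the change was smaller than the fold gate. The adjusted p-value for MBD3 was above 0.01 with library size alone (0.012) and without control replicate 1 (0.013), control replicate 2 (0.0103) or C3 replicate 3 (0.0105). MBD2, the other methyl-CpG-binding domain subunit listed and named after its values were seen, went the other way without overlap. Its log2 fold change was 0.16 (edgeR adjusted p = 0.095), under the fold gate. Among 15 subunits of the SIN3 complex, 1 was a higher and 0 were lower DEGs, near the 6.52% of all tested genes. The median of -0.0019 turned positive in several fits (0.072 with library size alone). The DEG was ARID4B, a chromodomain subunit, which rose from 287, 284 and 303 to 361, 464 and 475 normalized counts, a log2 fold change of 0.58 (SE 0.10, edgeR adjusted p = 0.000218). C3 replicate 1 lay between the control libraries and the other C3 libraries. Its paralog ARID4A, named after its values were seen, had a log2 fold change of 0.41 (edgeR adjusted p = 0.029), and its groups overlapped. Without C3 replicate 3 it was 0.27 (edgeR adjusted p = 0.27), and the adjusted p-value was also above 0.05 in DESeq2 and without control replicate 1, control replicate 2 or C3 replicate 2.

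Of 11 subunits of the CoREST and MiDAC complexes, 1 was a higher and 0 were lower DEGs (6.52% of all tested genes in either direction), with a median log2 fold change of 0.078 (0.15 with library size alone, 0.044 without control replicate 3). RCOR2, one of the CoREST scaffold proteins that join HDAC1 or HDAC2 to the demethylase KDM1A, rose from 162, 174 and 187 to 322, 276 and 287 normalized counts. The lowest C3 library lay well above the highest control library, and the log2 fold change of 0.76 (SE 0.11, edgeR adjusted p = 2.6e-05) is a 1.69-fold rise. Of 4 subunits of the NCoR complex, the partner of HDAC3, 0 were DEGs by the 3 tools, 1 was higher and 0 were lower at unadjusted p under 0.05 (all tested genes, 16.8% and 15.3%), and all had a positive value (median 0.079, or 0.15 with library size alone and 0.12 without C3 replicate 1), as had 50.4% of all tested genes. All 4 were positive also with RLE factors or library size alone, while 3 of 4 were positive without control replicate 1 or C3 replicate 2. GPS2, a small subunit that joins the complex, had the smallest p-value, with 61.7, 62.6 and 60.9 normalized counts in control and 74.0, 74.6 and 111 in C3 libraries. The groups did not overlap, and C3 replicate 3 was far above the other C3 libraries. The log2 fold change was 0.51 (SE 0.19, edgeR adjusted p = 0.064), and without C3 replicate 3 it was 0.27. Without both control replicate 3 and C3 replicate 1 it was 0.60 (edgeR adjusted p = 0.024).

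Of 22 partners and kinases of the class IIa enzymes, 17 were tested and 0 were DEGs by the 3 tools. At unadjusted p under 0.05, 3 were higher and 3 lower, near the 16.8% and 15.3% of all tested genes. The median log2 fold change was -0.0035, and it turned positive in several fits (0.068 with library size alone, 0.0066 without control replicate 1). Without control replicate 2 the median was -0.019, and without control replicate 3 it was -0.016. The smallest p-value was that of YWHAH, a 14-3-3 protein, with 2405, 2439 and 2392 normalized counts in control and 2091, 1985 and 2011 in C3 libraries. Its groups did not overlap, and its log2 fold change was -0.25 (SE 0.061, edgeR adjusted p = 0.0044). The adjusted p-value was above 0.01 with library size alone (0.035) and without control replicate 1 (0.0215), control replicate 2 (0.037), C3 replicate 2 (0.025) or C3 replicate 3 (0.035). Of 9 partners and substrates of HDAC6, 8 were tested and 0 were DEGs by the 3 tools, with 0 higher and 3 lower at unadjusted p under 0.05 (16.8% and 15.3% of all tested genes). All 8 had a negative value, as had 7483 of all 15078 tested genes, and the median was -0.15 (-0.079 with library size alone). With scaling by library size alone and without control replicate 1 or control replicate 3, 7 of 8 were negative. The same held with control replicate 3 and C3 replicate 1 both left out, and 8 of 9 were negative without the count filter. SQSTM1, a ubiquitin-binding autophagy receptor, led this list with 1863, 1885 and 1826 normalized counts in control and 1684, 1602 and 1478 in C3 libraries, a log2 fold change of -0.23 (SE 0.065, edgeR adjusted p = 0.013).

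Last, 5 genes were examined that are known to respond to inhibitors of classical HDACs in many cell types. Of these, 1 was a higher and 0 were lower DEGs, against 6.52% of all tested genes in either direction, and the median log2 fold change was 0.052. The median was unstable, at -0.11 without both control replicate 3 and C3 replicate 1, -0.011 without the first, -0.052 without the second, 0.13 without control replicate 1 and 0.13 with library size alone, and at 0.115 and 0.105 without C3 replicate 2 and C3 replicate 3. CDKN1A, which encodes the cell cycle inhibitor p21, rose from 763, 751 and 779 to 1188, 1024 and 1093 normalized counts, a log2 fold change of 0.53 (SE 0.072, edgeR adjusted p = 8.2e-06). Every C3 library lay above every control library, and the exact permutation test (two-sided) gave 0.1. None of the other 4 genes passed both gates. TXNIP, a thioredoxin-binding protein gene named after its values were seen, had a log2 fold change of -0.32 (edgeR adjusted p = 0.0012, or 0.013 with library size alone), below the fold gate. H2BC21, CLU and GADD45B had values of -0.42, 0.15 and 0.052 with adjusted p-values of 0.055, 0.49 and 0.88 from the same test, and H2BC21 belongs to a family of near-identical histone genes, which makes its reads uncertain. Thus RNA of CDKN1A rose in these libraries, while TXNIP and H2BC21 had negative values and CLU and GADD45B positive ones, none of them a DEG. None of the 9 tested HDAC genes passed the gates, which 6.52% of all tested genes passed.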

How the data were processed

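RNA of 6 Meg-01 libraries was sequenced, 3 per group. The authors processed the reads with fastp, STAR (2.6.1d) on GRCh38 and featureCounts (1.5.0-p3), as their processing notes and methods state. The deposited values are raw counts per Ensembl gene, without normalization; the annotation release and strand setting were not stated in the paper or labels. Columns were assigned by name. Here, a gene was tested if 3 or more libraries had 10 or more counts. TMM factors scaled the libraries, and C3 was compared with control by quasi-likelihood in edgeR 4.0.16 (R 4.3.3), without a block and with Benjamini-Hochberg adjustment. To obtain normalized counts, each count was scaled to the mean effective library size. The SE was derived from the F statistic, and 95% intervals use the t distribution. Intervals cover the spread between these libraries. Names, coordinates, transcript lengths and exon overlaps are from GENCODE release 44 on GRCh38, and 58207 of 58735 identifiers matched.

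The named genes are all deacetylases, every DEG of the other lists (at most 4 each) or the gene with the smallest p-value where a list had none, and genes that overlap a member. ARID4A, CAMK4, TXNIP, H2BC21, CLU, GADD45B, MBD2 and the marker genes were named after their values were seen. A rule for genes that resemble an HDAC among the DEGs found none to name. Members, lists and rules were chosen with earlier results of these data known, and the lists were written by hand from general knowledge. A few genes of these lists are not reported here and were left out of their counts and medians. DESeq2 (1.42.0), limma-voom (limma 3.58.1), RLE factors, scaling by size only, testing without the filter or from a mean count of 50 upwards, the replicate number as a block and leaving out each library were the alternatives. Leaving out 2 libraries together and the merged exon length were added after the data were seen.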

Additional observations from a re-analysis of the deposited data

How the results depend on the processing

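The numbers of DEGs among HDAC1 to HDAC10 (0 higher, 0 lower) were the same under all alternatives, and adjusted p-values below 0.05 were reached by up to 3 members. HDAC7 was below 0.05 with library size alone, without the count filter, from a mean count of 50 upwards, with the replicate block (0.0238), without control replicate 1, without C3 replicate 1 and with both control replicate 3 and C3 replicate 1 left out. HDAC1 reached 0.0484 with library size alone, and HDAC2 and HDAC5 reached 0.000321 and 0.0374 with the 2 libraries left out. Values that changed sign were those of HDAC5 (0.044 with library size alone, -0.093 to 0.041 with single libraries left out), HDAC6 (-0.12 with the 2 libraries left out, -0.073 to 0.16 with single ones), HDAC8 (0.057 with the 2 left out), HDAC10 (-3.8e-05 to 0.41 with single ones), SIRT3 (0.061 with library size alone, 0.0010 from a mean count of 50 upwards, -0.067 to 0.046 with single ones) and SIRT5 (0.044 with library size alone, -0.072 to 0.047 with single ones). Over all genes, lower DEGs numbered 101 with library size alone, 396 with the 2 libraries left out and 129 to 340 with single ones, being fewest when C3 replicate 3 was omitted and most when C3 replicate 1 was. SIN3 subunits had 2 higher DEGs, ARID4A being the other, without a count filter, with the replicate block and with the 2 libraries left out, and 1 to 2 with single ones left out (2 without C3 replicate 1). With the 2 libraries left out, CAMK4 became 1 higher DEG of the class IIa partners and H2BC21 1 lower DEG of the inhibitor response genes. SIRT1, SQSTM1, ARID4A and CAMK4 passed 0.05 only in some of the fits, with adjusted p-values up to 0.138, 0.146, 0.266 and 0.149. GPS2 and H2BC21, above 0.05 in the reported fit, were below it in some others. Over the alternative fits (edgeR, DESeq2 and limma-voom), their adjusted p-values ran from 0.0238 to 0.488 and from 0.0032 to 0.281. The cause of these shifts was not tested. With the replicate block, 909 genes were higher and 268 lower DEGs. Deviations of same-numbered libraries correlated at 0.021, -0.047 and 0.030, and those of differently numbered ones at -0.077 to 0.064. No pairing by number was seen in these values, which with 3 libraries per group cannot settle whether there was one. Depth limits HDAC8, HDAC9, HDAC10 and HDAC11, all under 100 counts.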
